A study of Mus musculus with 25 samples.

Results

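The genes described here are the 9 cardiac myosin genes Myh6, Myh7, Myh7b, Myl1, Myl2, Myl3, Myl4, Myl7 and Mylk3, which were taken by symbol from the 20870 genes of the expression table. They were measured by RNA sequencing in 25 libraries of laser-captured mouse heart tissue. The sinoatrial node (SAN), the pacemaker region, and the right atrium (RA), the working muscle beside it, were each captured at E14.5, an embryonic stage, and at 4 and 14 days after birth (P4 and P14), with 3 libraries per tissue and stage. The donors of these 18 libraries carried Hcn4-GFP, in which the pacemaker channel gene drives a fluorescent reporter, on a mixed background. The other 7 libraries are SAN of E12.5 embryos that carried Hcn4-GFP and were homozygous for a floxed Isl1 allele, after tamoxifen at E10.5. Of these, 4 had no Cre (CreNeg) and 3 carried the CAG-Cre/Esr1 transgene (CrePos), in which a broadly active promoter drives a tamoxifen-dependent recombinase, so that deletion is not limited to the node. The CreNeg embryos carried the floxed alleles and received tamoxifen too. Whether libraries of a group came from separate animals is not in the labels, and every p-value here reflects only the spread among libraries, which may be technical.

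Myosin is the motor of the thick filament of muscle. Each motor has a heavy chain, which splits ATP and pulls on actin, with an essential and a regulatory light chain around its neck. In the heart Myh6 encodes the fast alpha heavy chain, Myh7 the slow beta heavy chain and Myh7b a related slow-tonic heavy chain. Myl4 encodes the atrial essential light chain, Myl3 the ventricular and slow skeletal one, and Myl1 the fast skeletal one. Myl7 encodes the atrial regulatory light chain and Myl2 the ventricular one. Mylk3 encodes the cardiac myosin light chain kinase, which phosphorylates the regulatory light chain. In rodents the beta heavy chain predominates in the fetal ventricle and gives way to the alpha chain around birth, while atrial muscle uses mainly the alpha chain and the atrial light chains.

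Each of the 3 heavy chain genes contains a microRNA gene on its own strand, and the mature sequences are shown because they form a family whose host genes are the subject here. Sequences are from RefSeq on GRCm38.p6, 5′ to 3′, with the seed (bases 2 to 8) in capitals. The Myh6 and Myh7 products share the seed UAAGACG. The Myh7b product has the seed UAAGACU.
miR-208a-3p in Myh6, chr14:54949072-54949093, minus strand: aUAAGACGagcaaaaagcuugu
miR-208b-3p in Myh7, chr14:54975710-54975731, minus strand: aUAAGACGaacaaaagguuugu
miR-499-5p in Myh7b, chr2:155622893-155622913, plus strand: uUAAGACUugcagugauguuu

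Myh6 and Myh7 lie in tandem on chromosome 14, and the 250 bases before the start of each are shown because both genes rose in RA between P4 and P14. Of the 2 starts listed for Myh7, the one nearer the coding sequence is given. The sequences are RefSeq promoters on GRCm38.p6, read 5′ to 3′ on the gene's strand. Capitals mark matches on either strand to CANNTG (E-box), GATA and CATTCC (M-CAT core), which do not overlap here.
Myh6, chr14:54966608-54966857, minus strand: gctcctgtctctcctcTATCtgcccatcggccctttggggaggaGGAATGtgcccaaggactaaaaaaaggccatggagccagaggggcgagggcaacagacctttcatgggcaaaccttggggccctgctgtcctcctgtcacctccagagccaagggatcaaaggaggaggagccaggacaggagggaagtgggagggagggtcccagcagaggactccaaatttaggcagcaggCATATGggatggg
Myh7, chr14:54994550-54994799, minus strand: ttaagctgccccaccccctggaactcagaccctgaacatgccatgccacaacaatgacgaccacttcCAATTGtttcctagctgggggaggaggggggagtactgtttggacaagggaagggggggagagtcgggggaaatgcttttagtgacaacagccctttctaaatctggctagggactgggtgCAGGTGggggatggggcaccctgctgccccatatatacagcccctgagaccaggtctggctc
Myh6 held 1 E-box, 1 GATA and 1 CATTCC match, and Myh7 held 2 E-boxes and no match to the other letters. Neither window held TATAAA. Among 32851 promoter windows of the same length, 66.2% held an E-box, 53.6% GATA, 12.6% CATTCC and 12.4% TATAAA.

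Levels are in CPM, the deposited scaled values brought to a counts-per-million-like scale. The 18 tissue libraries held 5101711 to 17997497 recovered reads, where a single read was worth 0.0616 to 0.215 CPM, and 45298052 to 88020475 in the 7, where it was worth 0.00823 to 0.0177 CPM. Levels are not compared between these 2 sets. Differences are on the log2(CPM + 1) scale with their SE, from limma, and called means an adjusted p below 0.05 (Benjamini-Hochberg, over every gene tested). All 9 genes passed the filter on low values in both fits, of 17568 and 14595 genes tested. The tissue labels matched their markers: the summed level of 7 SAN genes, Hcn4, Shox2 and Isl1 among them, was 2792 to 7046 CPM in the SAN libraries and 90.7 to 223 CPM in the RA libraries. The median over all genes was -0.18 for SAN and -0.37 for RA from E14.5 to P14, -0.24 for RA from P4 to P14 and -0.42 for CrePos against CreNeg, and it was -0.05, -0.10, 0.00 and -0.03 with equal upper quartiles, where libraries were rescaled so that the upper quartile of the genes is the same in each. Changes of the myosin genes are to be read against these medians. With equal upper quartiles the split of calls into higher and lower also moved: from 1712 and 2551 to 2091 and 2046 for SAN from E14.5 to P14, from 1052 and 2936 to 1570 and 1640 for RA over the same span, and from 236 and 952 to 428 and 299 for RA from P4 to P14. It moved from 471 and 511 to 556 and 392 for SAN from P4 to P14, from 564 and 235 to 438 and 333 for SAN against RA at P14, from 288 and 111 to 230 and 167 for the difference between the tissues' changes, and from 99 and 193 to 159 and 70 for CrePos against CreNeg.

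No source used here says that counting used strand, so sense and antisense transcripts cannot be told apart. In GENCODE M21 an antisense gene overlaps Myh6, Myh7, Myl4 and Mylk3, and a protein-coding gene on the opposite strand overlaps Myh7, Myh7b, Myl2 and Myl3. Myl1 and Myl7 overlap no other gene. The Myh6 and Myh7 transcripts are 90.6% identical over 6043 aligned bases, and 22.6% of the 50-base windows of Myh7 occur exactly in Myh6. Reads from these stretches could have been given to either gene. Myh6 had the higher level in every tissue library, so its reads counted as Myh7 could be a larger part of the Myh7 row than that percentage. The Myh7 levels, shares and likeness to Myh6 given below carry this limit, whose size was not tested. No 50-base window was shared within the other pairs compared, which were Myh7b with Myh6 and with Myh7, Myl2 with Myl7, Myl3 with Myl4, and Myl1 with Myl3 and with Myl4.

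Before any comparison, 2 libraries stood apart in ventricular myosin light chain. Myl2 was 829 CPM in SAN E14.5 replicate 1 and 0.148 to 24.5 CPM in the other 17 tissue libraries. In the 7 libraries of E12.5 it was 1032 CPM in CrePos replicate 2, whose title marks it as an outlier, and 0.247 to 6.40 CPM in the other 6. These same libraries held the highest Myl3 of their sets, 422 and 776 CPM. Of 4 further ventricular genes, Irx4, a transcription factor of ventricular muscle, was 10.9 CPM in SAN E14.5 replicate 1 and 13.8 CPM in CrePos replicate 2, against 0 to 1.58 CPM in the other 17 tissue libraries and 0 in the other 6 of E12.5. Hey2, another ventricular transcription factor, was 22 and 27.6 CPM in the pair, but it reached 32.4 CPM in SAN P14 and 26.8 CPM in SAN P4. The list also holds Lbh and Mpped2. The summed level of those 4 genes was 144 to 271 CPM in SAN E14.5, 242 to 537 in SAN P4, 227 to 339 in SAN P14 and 78.6 to 148 in the RA groups. Of the 3 genes of the list that were tested, Lbh was called higher in SAN over the 3 stages and at P4, and Hey2 and Lbh at P14. The sum thus also differs between SAN and RA. SAN E14.5 replicate 1 held the highest sum of its own group, 271 CPM against 245 and 144, and was below the highest SAN P4 and SAN P14 libraries. CrePos replicate 2 held the highest sum of its 7 libraries, 136 CPM against 36.1 to 105. In laser-captured tissue, more cells of a type and more RNA per cell cannot be told apart. Differences in Myl2, Myl3 and Myh7 that use SAN E14.5 are given with and without its replicate 1. CrePos replicate 2 was left out of the limma test, and values that include it are named as such.

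Compared per kilobase of transcript, the 9 genes kept much of their order across the 6 tissue groups. Myl7 had the highest level in every group, with group means of 6373 to 10338 CPM per kilobase. Myl4 came second, at 2226 to 4020, and Myh6 next, at 1410 to 3339. Myh7b was lowest throughout, at 0.133 to 6.06 CPM per kilobase. Myh7 lay at 197 to 528, Myl1 at 122 to 317 and Mylk3 at 29.3 to 108 CPM per kilobase. Thus both tissues at all 3 stages held an atrial set of transcripts, with Myl7, Myl4 and Myh6 above the ventricular Myl2, Myl3 and Myh7. The neighbours Myl4 and Myh6 lay within their spread in RA P14, at 4020 ± 1222 and 3339 ± 326 CPM per kilobase (SD, n = 3), and in RA P4, at 2522 ± 933 and 1577 ± 133. RA P14 replicate 2 stood apart from its group, with 3113 CPM of Myl7 and 4761 of Myl4, against 6214 and 7049 CPM of Myl7 and 2766 and 3074 of Myl4 in the others.

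**Figure D1:**
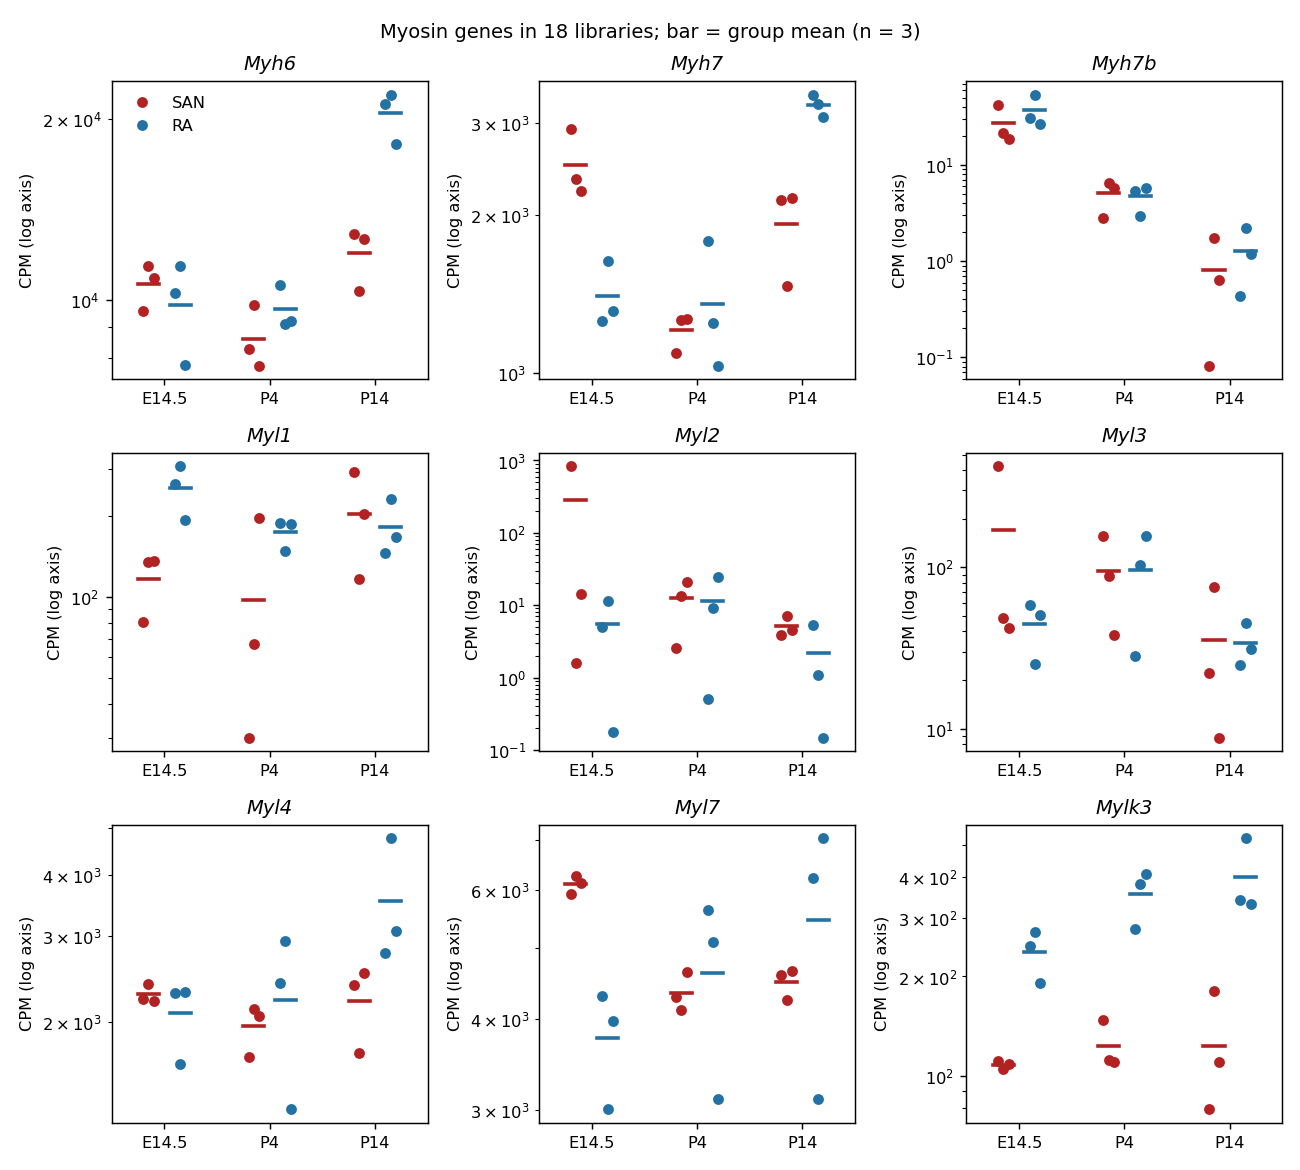
Level of each of the 9 myosin genes (y axis, CPM, log scale, its range differing between panels) in each library of SAN (red) and RA (blue) at E14.5, P4 and P14 (x axis), with a bar at the mean of each group of 3. At each stage every SAN library has less Mylk3 than every RA library, Myh6 and Myh7 of RA are highest at P14, Myh7b falls in both tissues, and 1 SAN library at E14.5 holds 829 CPM of Myl2.

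The first comparison asks which myosin genes set SAN apart from RA. Over the mean of the 3 stages Mylk3, the kinase, was lower in SAN, and no other myosin gene was called. At single stages Myh7 was higher in SAN at E14.5 and lower at P14, and Myh6 was lower at P14. The other genes, all 5 light chains among them, were not called at any stage.

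Mylk3 in SAN was 111, 105 and 109 CPM at E14.5, 148, 112 and 110 at P4, and 79.4, 181 and 110 at P14. In RA it was 247, 272 and 191 CPM at E14.5, 278, 380 and 408 at P4, and 340, 523 and 332 at P14. Every SAN library was below every RA library of all stages, and the groups did not overlap. The log2 difference over the 3 stages was -1.45 ± 0.15 (adjusted p = 1.83e-07), a level 2.73-fold lower in SAN. It was -1.10 ± 0.25 at E14.5 (adjusted p = 0.00868), -1.51 ± 0.25 at P4 (adjusted p = 3.62e-04) and -1.73 ± 0.25 at P14 (adjusted p = 1.20e-04). Without RA E14.5 replicate 2 the call at E14.5 was lost, with -1.0 and an adjusted p of 0.0574, while the calls at P4, P14 and over the 3 stages passed in all alternatives run. The antisense gene AA672651 overlaps Mylk3, and its part in the row was not tested. Several cell types differed with tissue too: of the 5 endothelial markers 3 were called lower in SAN over the 3 stages, of the 5 fibroblast markers 4 were called higher, and of 5 general cardiac muscle genes 2 were called higher (Tnnt2, Actc1) and 2 lower (Actn2, Ryr2). The summed level of those 5 muscle genes was 20770 to 23936 CPM in SAN E14.5 against 15302 to 19091 in RA E14.5, 21028 to 25032 against 13520 to 15654 at P4, and 17208 to 20818 against 20368 to 21552 at P14. The part of these cell types in the Mylk3 difference was not tested.

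Over the 3 stages 0 of the 9 genes were called higher and 1 lower, where 6.11% of all genes tested were called higher and 5.36% lower. At E14.5, 1 gene was called higher and 1 lower, against 2.24% and 3.09% of all genes. P4 gave 0 higher and 1 lower, against 2.97% and 2.99%. P14 gave 0 higher and 3 lower, against 3.21% and 1.34%. The median difference of the 9 genes over the 3 stages was -0.21, and that of all genes was -0.01. At P14 the median of the 9 was -0.38, and that of all genes was 0.10.

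**Figure D2:**
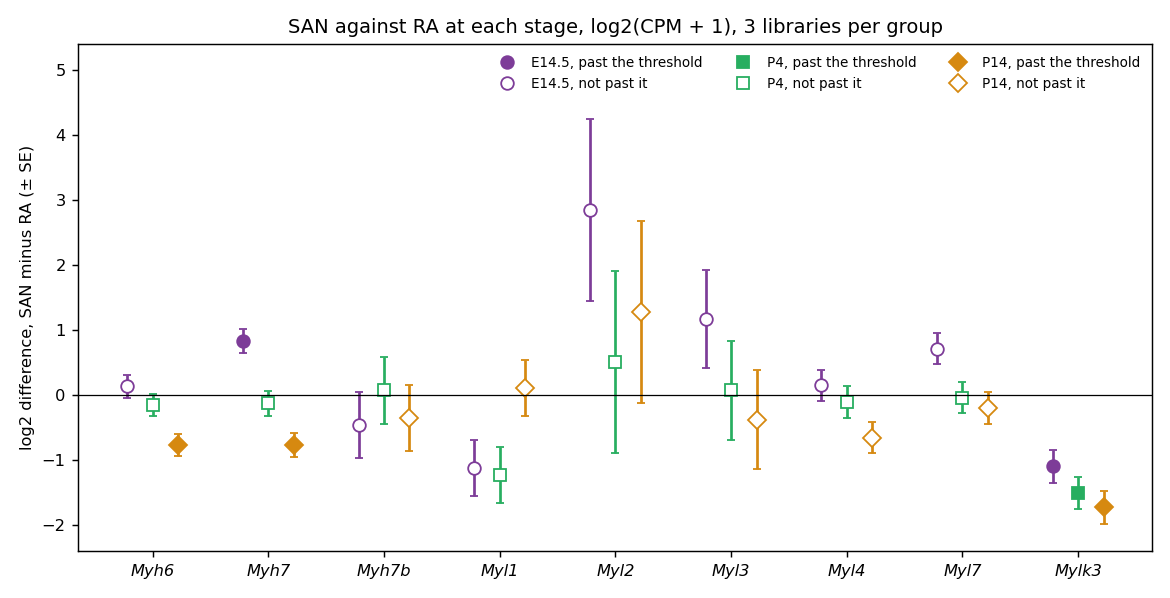
Difference between SAN and RA (y axis, log2 of CPM + 1, SAN minus RA, bars ± SE) for each myosin gene (x axis) at E14.5 (circles), P4 (squares) and P14 (diamonds), filled where the adjusted p was under 0.05. Mylk3 is below 0 at all 3 stages, and Myh7 goes from 0.83 at E14.5 to -0.77 at P14.

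Among the heavy chains, Myh7 had 2917, 2342 and 2223 CPM in SAN and 1260, 1640 and 1315 CPM in RA at E14.5. All SAN libraries were above all RA libraries. The difference was 0.83 ± 0.19 (adjusted p = 0.00986), a 1.77-fold higher level in SAN. It did not pass without SAN E14.5 replicate 1, the library with high Myl2 (0.71, adjusted p = 0.0801), nor without RA E14.5 replicate 1 (0.75, adjusted p = 0.0637), though the groups stayed apart. At P4 the tissues overlapped, with 1093 to 1271 CPM in SAN and 1034 to 1783 in RA. At P14 the order was the opposite one: 2140, 1468 and 2156 CPM in SAN against 3394, 3251 and 3072 in RA, a difference of -0.77 ± 0.19 (adjusted p = 0.0194). That call was lost without SAN P14 replicate 2, the lowest of its group (-0.59, adjusted p = 0.122), without RA P14 replicate 1 (-0.74, adjusted p = 0.078) and without RA P14 replicate 2 (-0.77, adjusted p = 0.0667).

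Myh6, the alpha chain, overlapped between the tissues at E14.5, with 9576 to 11392 CPM in SAN and 7781 to 11377 in RA, and at P4, with 7773 to 9815 in SAN and 9105 to 10573 in RA. At P14 SAN held 12884, 10345 and 12611 CPM and RA 21145, 21933 and 18154. The groups did not overlap, and Myh6 was lower in SAN by -0.77 ± 0.17 on the log2 scale (adjusted p = 0.0085). Without SAN P14 replicate 2 the value was -0.67 and the adjusted p 0.0529. Fibroblast markers moved with this difference: their summed level was 9889 to 12895 CPM in SAN P14 and 4047 to 5242 CPM in RA P14, and their part in it was not tested. Over the mean of the stages Myh6 was not called (-0.27 ± 0.10, adjusted p = 0.0865), except without RA E14.5 replicate 3 (-0.32, adjusted p = 0.0251). Myh7b overlapped between SAN and RA at each stage.

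Of the essential light chains, Myl4 was 2230, 2387 and 2205 CPM in SAN and 2295, 1639 and 2305 in RA at E14.5, and 1690 to 2128 against 1321 to 2930 at P4. At P14 it was 2382, 1724 and 2519 in SAN against 2766, 4761 and 3074 in RA, so that the groups did not overlap. The difference of -0.66 ± 0.24 was not called (adjusted p = 0.158), but DESeq2 on the recovered reads called it (-0.80, adjusted p = 0.0475). Myl1 was lower in all SAN libraries than in all RA libraries at E14.5, at 80.8, 135 and 136 against 264, 306 and 194 CPM. The difference was -1.13 ± 0.43 and was not called (adjusted p = 0.159). At P4 Myl1 was 30.1, 66.8 and 196 CPM in SAN and 188, 149 and 187 in RA, and the highest SAN library lay above all RA libraries. Without that library, SAN P4 replicate 3, the P4 difference was called at -1.93 (adjusted p = 8.79e-04), and so was the mean over stages at -0.99 (adjusted p = 8.13e-04), which was -0.75 ± 0.25 with all libraries (adjusted p = 0.0543). The mean also passed without SAN P14 replicate 1 (-0.85, adjusted p = 0.0341) and with equal upper quartiles (-0.78, adjusted p = 0.0373). At P14 Myl1 overlapped, at 117 to 291 CPM in SAN and 146 to 232 in RA. Of 7 other skeletal muscle genes tested, 1 was called lower in SAN over the 3 stages (Actn3) and none higher.

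Myl3 at E14.5 was 422, 48.7 and 42.2 CPM in SAN and 58.3, 25.2 and 50.8 in RA. The groups overlapped but for the first SAN library. The difference was 1.17 ± 0.76 (adjusted p = 0.516), and 0.10 without that library. At P4 Myl3 was 38.1 to 157 CPM in SAN and 28.2 to 156 in RA, and at P14 8.80 to 75.8 in SAN and 24.7 to 45.3 in RA. Replicates of Myl3 thus differed among themselves by more than the tissues did.

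The regulatory light chain Myl7 was 5921, 6258 and 6119 CPM in SAN at E14.5 and 4301, 3010 and 3969 in RA, with no overlap. The difference, 0.71 ± 0.24, was not called (adjusted p = 0.0989), but DESeq2 on the recovered reads called it (0.73, adjusted p = 0.0469). At P4 and P14 the tissues overlapped. Myl2, its ventricular counterpart, was 829, 1.6 and 14 CPM in SAN E14.5 and 4.96, 11.6 and 0.178 in RA E14.5, a difference of 2.84 ± 1.40 (adjusted p = 0.325) that was 0.49 without SAN E14.5 replicate 1. DESeq2 on the recovered reads called it with all libraries (5.81, adjusted p = 0.00929). It was 2.57, 13.4 and 21.2 CPM in SAN P4 against 0.509, 9.22 and 24.5 in RA P4, and 3.85, 7.06 and 4.48 in SAN P14 against 5.4, 1.07 and 0.148 in RA P14. Several of these values rest on very few reads, as few as 1 read in RA P14 replicate 3 and 2 reads in RA E14.5 replicate 3.

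Shares within a library compare isoforms without a scaling factor. The log2 ratios add 1 CPM to each gene, so they depend on that constant where a gene is low, as Myl2 at 0.148 CPM in RA P14 replicate 3. As a share of Myh6 and Myh7 per transcript length, Myh7 was 19.1% ± 3.65 (SD, n = 3) in SAN E14.5, with 23.3, 17.0 and 16.9% in the 3 libraries. In RA E14.5 it was 12.6% ± 1.76 (SD, n = 3), and in the 4 postnatal groups the means were 12.1 to 13.7%. SAN E14.5 was thus the tissue group with the highest share, and its lowest library lay above all 15 other tissue libraries. Over the 3 stages the log2 ratio of Myh7 to Myh6 was higher in SAN by 0.25, with an exact two-sided permutation p of 0.0815 and 0.163 after adjustment over the 4 ratios tested. Without SAN E14.5 replicate 1 it was 0.18 (exact permutation p = 0.137). Leaving out RA P4 replicate 1 gave 0.29 with p = 0.0265, and leaving out SAN P14 replicate 2 gave 0.27 with p = 0.0435, both exact and unadjusted. At E14.5 alone the ratio was 0.70 higher in SAN (exact permutation p = 0.1, the smallest that 3 against 3 libraries can give), and 0.51 higher without SAN E14.5 replicate 1, and at P14 the tissues differed by 0.00.

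Myl3 was 1.70% ± 0.463 (SD, n = 3) of the 3 essential light chains in RA E14.5, 4.26% ± 4.02 in RA P4 and 0.839% ± 0.0544 (SD, n = 3) in RA P14. Its share ranged from 1 to 8.75% among the RA P4 libraries and from 1.55 to 7.87% among those of SAN P4. In SAN E14.5 replicate 1 it was 14.6%, against 1.77 and 1.66% in the other 2. The log2 ratio of Myl3 to Myl4 differed by 0.49 between SAN and RA over the stages, with an exact permutation p of 0.429. Without SAN E14.5 replicate 1 it differed by 0.13 (exact permutation p = 0.797), and at E14.5 by -0.06 in place of 1.02. Myl2 was 11.1% of Myl2 and Myl7 in SAN E14.5 replicate 1 and under 1% in each of the other 17 tissue libraries, where the highest value was 0.699%. The log2 ratio of Myl2 to Myl7 differed by 1.39 (exact permutation p = 0.205). Without SAN E14.5 replicate 1 it differed by 0.60 (exact permutation p = 0.459), and at E14.5 by -0.24 in place of 2.13. The log2 ratio of Myl4 to Myl7 was lower in SAN by -0.36 (exact permutation p = 0.0583, adjusted p = 0.163 over the 4 ratios). At E14.5 it was -1.42 ± 0.04 in SAN and -0.86 ± 0.06 in RA (SD, n = 3), with no overlap, and at P4 the tissues overlapped. Leaving out any of 5 postnatal libraries, which were RA P4 replicates 1 and 3, SAN P4 replicate 2 and RA P14 replicates 1 and 3, brought the unadjusted exact p to between 0.0253 and 0.0447, with values of -0.47 to -0.39. Without RA P14 replicate 2, whose ratio of 0.61 was the highest of the 18, the difference was -0.17 (exact permutation p = 0.155).

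**Figure D3:**
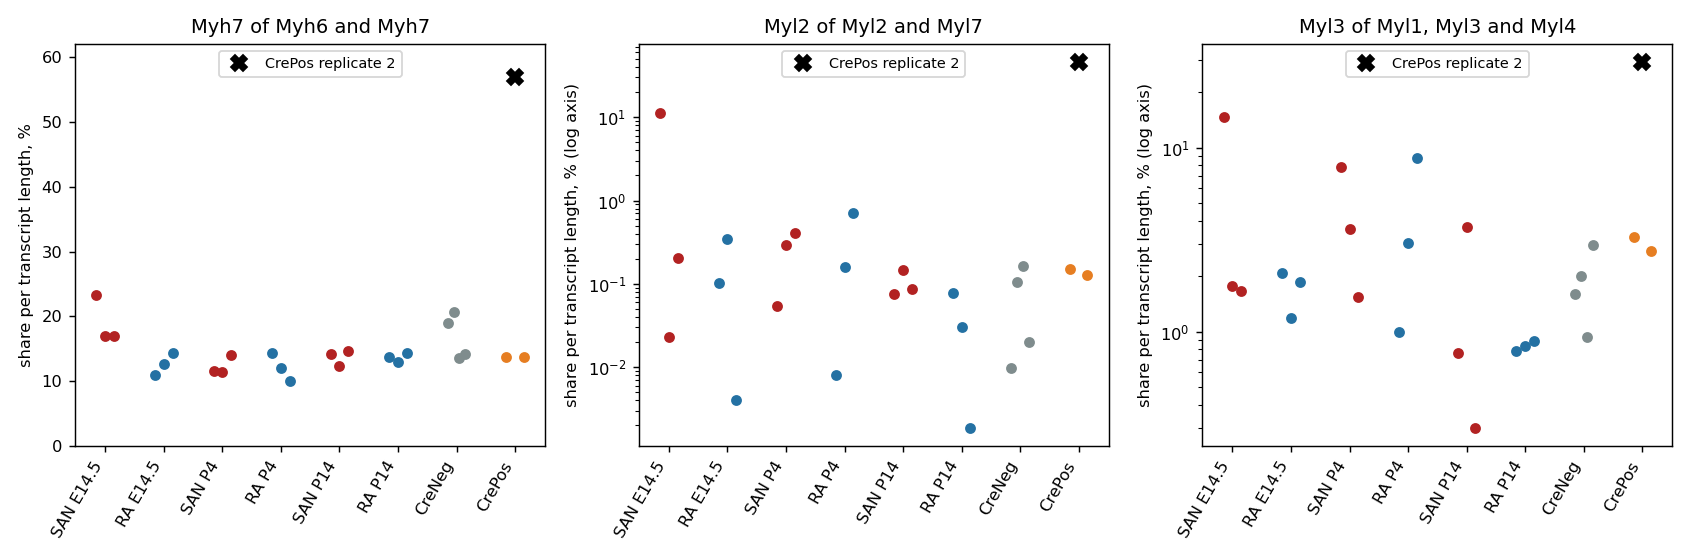
Share of Myh7 in Myh6 and Myh7 (left, linear axis), of Myl2 in Myl2 and Myl7 (middle, log axis) and of Myl3 in Myl1, Myl3 and Myl4 (right, log axis), in percent of CPM per transcript length, for each library (points) of the 8 groups (x axis). CrePos replicate 2 (black cross) holds the highest value in each panel, with 56.9% Myh7 and 45.7% Myl2, and SAN E14.5 replicate 1 the next highest, with 23.3% and 11.1%.

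The second comparison follows each tissue from E14.5 to P4 and P14. Myh7b, the slow-tonic heavy chain, fell in both tissues. Myh6 and Myh7 rose in RA between P4 and P14, and Myl4 and Mylk3 rose in RA over the whole span. In SAN Myh7 fell from E14.5 to P4 and rose again to P14, while Myh6, Myl4, Myl7 and Mylk3 were not called. Stage comparisons within a tissue share libraries (those of E14.5, P4 or P14), so they are not independent of each other.

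Myh7b was 41.7, 21.7 and 18.7 CPM in SAN E14.5, 2.84, 6.51 and 5.83 in SAN P4 and 0.0818, 1.73 and 0.640 in SAN P14. In RA it was 31.2, 54.0 and 26.9 CPM, then 5.39, 2.93 and 5.81, then 0.438, 2.23 and 1.18. No stage overlapped with the next in either tissue. From E14.5 to P14 it fell by 3.98 ± 0.51 on the log2 scale in SAN (adjusted p = 7.41e-06) and by 4.08 ± 0.51 in RA (adjusted p = 5.76e-06), and both calls passed in all alternatives run. The first step, to P4, was -2.20 ± 0.51 in SAN (adjusted p = 0.00939) and -2.72 ± 0.51 in RA (adjusted p = 0.00152). The SAN value was -1.86 without SAN E14.5 replicate 1 (adjusted p = 0.0705). The second step was -1.78 ± 0.51 in SAN (adjusted p = 0.0436) and -1.36 ± 0.51 in RA, where it was not called (adjusted p = 0.115). The SAN call of the second step was lost when any 1 of 4 libraries was left out: SAN P4 replicate 2 (-1.60, adjusted p = 0.142), SAN P4 replicate 3 (-1.67, adjusted p = 0.093), SAN P14 replicate 1 (-1.46, adjusted p = 0.164) or SAN P14 replicate 3 (-1.76, adjusted p = 0.0985). At P14 the values rest on 1, 13 and 8 reads in SAN and on 3, 25 and 8 reads in RA, so the fold is poorly fixed. Trpc4ap, a protein-coding gene on the opposite strand, overlaps Myh7b, and its part in the row was not tested.

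In RA Myh6 went from 10282, 11377 and 7781 CPM at E14.5 through 10573, 9105 and 9242 at P4 to 21145, 21933 and 18154 at P14. The last group lay above all others of either tissue. The rise from P4 to P14 was 1.08 ± 0.17 (adjusted p = 6.31e-04), and from E14.5 it was 1.07 ± 0.17 (adjusted p = 9.12e-05). Myh7 in RA was 1260, 1640 and 1315, then 1783, 1247 and 1034, then 3394, 3251 and 3072 CPM. It rose from P4 to P14 by 1.29 ± 0.19 (adjusted p = 3.92e-04) and from E14.5 to P14 by 1.21 ± 0.19 (adjusted p = 7.66e-05). These 4 calls passed in all alternatives run. With equal upper quartiles the 2 rises from E14.5 were 1.40 and 1.54. Since both genes rose, the Myh7 share in RA was 12.6% at E14.5 and 13.7% at P14. What part Myh6 reads counted as Myh7 may have in the Myh7 rise was not tested.

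In SAN Myh7 fell from E14.5 to P4 by 1.04 ± 0.19 on the log2 scale (adjusted p = 0.00133), with all 3 P4 libraries, at 1093, 1264 and 1271 CPM, below all E14.5 libraries. That call held without SAN E14.5 replicate 1 (-0.92, adjusted p = 0.0147). It rose from P4 to P14 by 0.65 ± 0.19 (adjusted p = 0.0491), a call that was lost without each of 5 of the 6 SAN libraries compared, with values of 0.56 to 0.69 and adjusted p of 0.0584 to 0.172. Over the whole span SAN Myh7 changed by -0.39 ± 0.19 and was not called (adjusted p = 0.152), with -0.27 without SAN E14.5 replicate 1 (adjusted p = 0.433). SAN Myh6 was 7773 to 11392 CPM at the first 2 stages and 10345 to 12884 at P14, with 0.47 ± 0.17 from P4 to P14 (adjusted p = 0.118). DESeq2 called that Myh6 rise (0.59, adjusted p = 0.0174).

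Whether SAN and RA changed differently over the whole span was tested directly. Myh7 was the gene called, at -1.60 ± 0.27 (adjusted p = 0.00231): it went down by 0.39 in SAN and up by 1.21 in RA. The value was -1.48 without SAN E14.5 replicate 1 (adjusted p = 0.0116), and it passed in all alternatives run. Myh6 missed the threshold at -0.90 ± 0.24 (adjusted p = 0.0519), and passed without RA E14.5 replicate 2 (-1.02, adjusted p = 0.0362) and with equal upper quartiles (-1.08, adjusted p = 0.0292). It also passed with edgeR (-1.10, adjusted p = 0.0191) and with DESeq2 (-1.06, adjusted p = 0.00235). Of the 9 genes 0 were called higher and 1 lower here, where 1.64% and 0.632% of all genes were. Myl7 gave -0.91 ± 0.34 (adjusted p = 0.182), and -1.27 without RA P14 replicate 2 (adjusted p = 0.0274). DESeq2 called this Myl7 difference too (-1.12, adjusted p = 0.0403). For Myh7b both tissues fell, and the difference between its 2 changes was not called (adjusted p = 0.968).

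Of the light chains and the kinase, 2 genes were called for a change with stage, both in RA over the whole span. Myl4 in RA rose from E14.5 to P14 by 0.74 ± 0.24 (adjusted p = 0.0319). Without RA P14 replicate 2, which held 4761 CPM, the rise was 0.50 (adjusted p = 0.188), and without RA E14.5 replicate 2, which held 1639 CPM, it was 0.58 (adjusted p = 0.15). From P4 to P14 alone Myl4 in RA was not called (0.71 ± 0.24, adjusted p = 0.0839), but it was with equal upper quartiles (1.02, adjusted p = 0.0229) and without RA P4 replicate 2 (0.95, adjusted p = 0.0391). It was also called with edgeR (1.01, adjusted p = 0.0382) and with DESeq2 (1.03, adjusted p = 0.00367). Mylk3 in RA rose by 0.73 ± 0.25 (adjusted p = 0.0389). That call was lost without RA E14.5 replicate 1 (0.77, adjusted p = 0.073), RA E14.5 replicate 3 (0.58, adjusted p = 0.153) or RA P14 replicate 2 (0.52, adjusted p = 0.2). SAN Mylk3 stayed between 79.4 and 181 CPM in all 9 libraries. Myl7 in RA changed by 0.47 ± 0.24 and was not called (adjusted p = 0.173), with the call made without RA P14 replicate 2 (0.83, adjusted p = 0.00849) and with equal upper quartiles (0.80, adjusted p = 0.0297). The call was also made with edgeR (0.90, adjusted p = 0.0138) and with DESeq2 (0.90, adjusted p = 0.0027). Myl3 in SAN changed by -1.90 ± 0.76 (adjusted p = 0.0744), and by -0.84 without SAN E14.5 replicate 1. It was called without SAN E14.5 replicate 3 (-2.48, adjusted p = 0.0367) or SAN P14 replicate 2 (-2.69, adjusted p = 0.0178). The SAN change of Myl2, -2.42 ± 1.40, was -0.07 without SAN E14.5 replicate 1 and was called without SAN E14.5 replicate 2 (-4.23, adjusted p = 0.029). With all libraries, edgeR (-5.64, adjusted p = 0.0207) and DESeq2 (-5.60, adjusted p = 0.0043) called this Myl2 change. Myl1 in SAN changed from P4 to P14 by 1.36 ± 0.43 (adjusted p = 0.0685), and the call was made without SAN P4 replicate 3 (2.06, adjusted p = 0.00116) or without SAN P14 replicate 2 (1.71, adjusted p = 0.0377). It was made with DESeq2 (1.25, adjusted p = 0.0404) and with equal upper quartiles (1.44, adjusted p = 0.0458) too.

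In SAN from E14.5 to P4, 0 of the 9 genes were called higher and 2 lower, against 3.85% and 4.39% of all genes. From P4 to P14 it was 1 higher and 1 lower, against 2.68% and 2.91%, and from E14.5 to P14 it was 0 higher and 1 lower, against 9.74% and 14.5%. In RA the first step gave 0 higher and 1 lower, against 3.23% and 3.56%. The second gave 2 higher and 0 lower, against 1.34% and 5.42%, and the whole span gave 4 higher and 1 lower, against 5.99% and 16.7%. The median change of the 9 over the whole span was 0.47 in RA, where that of all genes was -0.37, and -0.39 in SAN, where that of all genes was -0.18. Fibroblast markers rose over the same span, in summed level from 1402 to 3192 CPM in SAN E14.5 to 9889 to 12895 in SAN P14, and from 1213 to 1636 in RA E14.5 to 4047 to 5242 in RA P14. Working atrial genes, such as Nppa and Sln, rose in RA from 1168 to 1266 CPM to 2932 to 4372, with 4 of 7 called higher. What part these took in the myosin changes was not tested.

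**Figure D4:**
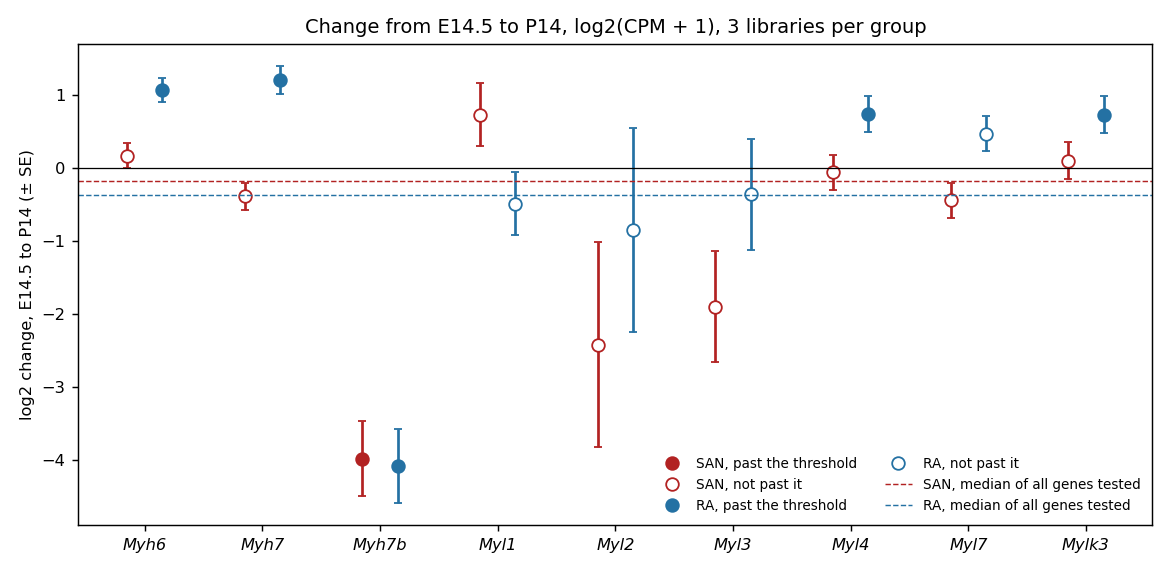
Change from E14.5 to P14 (y axis, log2 of CPM + 1, bars ± SE) of each myosin gene (x axis) in SAN (red) and RA (blue), filled where the adjusted p was under 0.05, with dashed lines at the median of all genes tested. Myh7b is near -4 in both tissues, and Myh6 and Myh7 are above 1 in RA, where Myh7 of SAN is at -0.39.

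The row of Mir208b, the microRNA gene inside Myh7 whose sequence is given above, was singled out after its values were seen. It held 0, 0 and 3 reads in SAN E14.5 and 1, 0 and 8 reads in RA E14.5. At P4 it was 4.13, 0.802 and 9.22 CPM in SAN and 6.61, 1.47 and 3.44 in RA. At P14 it was 5.16, 11.3 and 4.96 CPM in SAN and 24.1, 14.3 and 23.2 in RA, and every RA library lay above every SAN library. The rise from E14.5 to P14 was called in RA (adjusted p = 2.60e-05) and in SAN (adjusted p = 0.0011). Host Myh7 did not rise in SAN over that span. Unspliced Myh7 RNA covers the same bases, so reads of the microRNA and of its host cannot be told apart. Mir208a, inside Myh6, stayed between 0 and 2.03 CPM in the 18 libraries and was not tested.

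Genes known to build, phosphorylate or regulate myosin were taken from lists that were chosen with earlier results of these data known. Over the 3 stages 6.11% of all genes were called higher in SAN and 5.36% lower, and the counts of each list are to be read against these shares. Of 11 thick filament partners tested, 2 were called higher and 2 lower in SAN over the 3 stages. Smyd1 and Unc45b, which assist the folding and assembly of myosin, were higher by 0.37 ± 0.09 (adjusted p = 0.00532) and 0.47 ± 0.11 (adjusted p = 0.0059). Myom2, an M-band protein that links thick filaments, was lower by -2.36 ± 0.31 (adjusted p = 1.09e-05), and titin, Ttn, by -0.42 ± 0.11 (adjusted p = 0.0125). Among 8 skeletal and developmental striated myosin genes, 1 was lower and 0 higher: Mylk4, another myosin light chain kinase, at -2.37 ± 0.36 (adjusted p = 7.37e-05). Both striated kinases that were called, Mylk3 and Mylk4, were thus lower in SAN.

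Of 10 smooth muscle and nonmuscle myosin genes, 3 were higher in SAN over the stages and 1 lower, against 6.11% and 5.36% of all genes. Myh11, the smooth muscle heavy chain, was higher by 3.06 ± 0.52 (adjusted p = 2.51e-04) and Mylk, the smooth muscle kinase, by 1.62 ± 0.27 (adjusted p = 1.65e-04), while Myh14, a nonmuscle heavy chain, was lower by -1.29 ± 0.28 (adjusted p = 0.00296). The Mylk mean joins unlike stages. Mylk was higher in SAN by 3.48 ± 0.46 at P4 (adjusted p = 2.28e-05) and by 2.91 ± 0.46 at P14 (adjusted p = 3.45e-04). Neither Mylk nor Myh11 was called at E14.5. The change of Mylk from E14.5 to P14 differed between SAN and RA by 4.43 ± 0.65 (adjusted p = 7.58e-04). Of 6 smooth muscle and pericyte markers 2 were called higher over the 3 stages, Rgs5 and Cspg4. At P14 Cnn1, Tagln and Acta2 were called higher, with summed levels of 2655 to 3020 CPM in SAN against 756 to 1107 in RA. At P4, where Mylk was called, 0 of the 6 markers were. Their summed levels overlapped there, at 646 to 2948 CPM in SAN and 456 to 1004 in RA. The part of these markers in the Myh11 and Mylk differences was not tested. Of 7 genes of the myosin light chain phosphatase 1 was higher, Ppp1r12b, a targeting subunit, by 0.42 ± 0.10 (adjusted p = 0.00795). Of 12 regulators of myosin heavy chain genes tested, 0 were higher and 3 lower, among them Myocd (-0.56 ± 0.12, adjusted p = 0.0022) and Tead1 (-0.47 ± 0.12, adjusted p = 0.0106), both transcription regulators of cardiac muscle genes. The medians of the 5 lists over the stages lay between -0.33 and 0.14, where that of all genes was -0.01.

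From E14.5 to P14, 5 of the 11 thick filament partners rose and 1 fell in RA, whereas in SAN 0 rose and 3 fell, though no member of the list was called for the difference between the tissues. Of all genes, 5.99% rose and 16.7% fell in RA, and 9.74% and 14.5% in SAN. The list's median change was 0.29 in RA and 0.08 in SAN, where that of all genes was -0.37 and -0.18. In RA Mybphl, a myosin binding protein of the atrium, rose by 1.59 ± 0.26 (adjusted p = 1.34e-04). Mybpc3, the cardiac myosin binding protein C, fell in RA by 0.67 ± 0.18 (adjusted p = 0.00884) and in SAN by 1.08 ± 0.18 (adjusted p = 1.18e-04). Mylk4 rose in both, by 6.31 ± 0.63 in RA (adjusted p = 2.99e-07) and by 4.98 ± 0.63 in SAN (adjusted p = 5.96e-06). Myh8, the perinatal skeletal heavy chain, fell in both, with -2.10 ± 0.57 in RA (adjusted p = 0.0101) and -2.55 ± 0.57 in SAN (adjusted p = 0.00219). Among the 12 regulators 3 rose in RA and 4 in SAN, and none fell in either, against the same shares of all genes. Their median change was 0.03 in RA and 0.28 in SAN. Dio2, which makes active thyroid hormone, rose by 5.75 ± 0.72 in SAN (adjusted p = 5.44e-06) and 2.86 ± 0.72 in RA (adjusted p = 0.00581). Thyroid hormone is known to raise alpha and lower beta heavy chain expression in rodent heart. A link of Dio2 to the heavy chain changes here was not tested.

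For each of the 9 genes the 3 genes with the most similar pattern over the 18 libraries were listed by Pearson r of log2 levels, as a description, since the libraries share tissue, stage and scaling. Myh7 was the second most similar gene to Myh6 (r = 0.82), after Clcn6 (0.83) and before Cilp2 (0.81), and Myh6 was the first for Myh7, with r = 0.91 when SAN E14.5 replicate 1 was left out. The part of reads from their identical stretches in this likeness was not tested. Myh7b was most like Igf2r (0.96), Grb10 (0.95) and Hif3a (0.94), and Mylk3 most like Slc7a1 (0.93), Bmp10 (0.92), an atrial growth factor, and Mtus2 (0.91). Myl1 was most like Atp10d (0.91), Lbp (0.88) and Tpm2 (0.85). The nearest genes of Myl4 were Vcp-rs (0.84), Ghitm (0.82) and Pde9a (0.80), those of Myl7 Lgi2 (0.80), Atp5f1 (0.79) and Ndufa11 (0.78), and those of Myl3 Cyhr1 (0.84), Stard7 (0.80) and Trip6 (0.80). For Myl2 they were Robo1 (0.74), Gnai1 (0.71) and Slc25a25 (0.71), and without SAN E14.5 replicate 1 the value for Robo1 was 0.59. No other myosin gene stood among the 3 nearest of any gene but this pair.

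The third comparison asks how the myosin genes differ at E12.5 when Isl1, a transcription factor of the second heart field and the node, is floxed and Cre is present. The target came first: Isl1 was 67.4, 88.5, 47.8 and 83.2 CPM in CreNeg and 71.7, 2.85 and 53.9 CPM in CrePos replicates 1, 2 and 3. Replicates 1 and 3 lay within the CreNeg range, so the level of the row does not separate the libraries labelled CrePos from CreNeg. The row is a single value for the gene, in which a deletion of part of it need not show. Hcn4, the pacemaker channel, was 214 to 247 CPM in CreNeg and 108, 36.7 and 81.1 in CrePos. CrePos replicate 2 stood apart from the other 6 libraries in Myl2, Myl3 and Irx4, as given above.

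With CrePos replicates 1 and 3 against the 4 CreNeg libraries, Myl1 and Myl3 were higher in the libraries labelled CrePos and no myosin gene was called lower. Of the 9 genes 2 were called higher and 0 lower, against 0.678% and 1.32% of all genes. Myl1 was 73.3 and 161 CPM in CrePos and 42.3, 38.2, 49.1 and 40.1 in CreNeg, with no overlap. The difference was 1.34 ± 0.30 (adjusted p = 0.0293). Myl3 was 121 and 85.4 CPM in CrePos and 30.1, 41.8, 24.0 and 63.3 in CreNeg, also without overlap. It was higher by 1.42 ± 0.34 (adjusted p = 0.0397). The median of the 9 genes was 0.21, where that of all genes was -0.42, and with equal upper quartiles Myl1 and Myl3 were higher by 1.79 and 1.87.

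Both calls rest on few libraries. Myl1 was not called without CrePos replicate 3 (0.78, adjusted p = 0.81), without CreNeg replicate 2 (1.29, adjusted p = 0.0521) or without CreNeg replicate 4 (1.32, adjusted p = 0.0541), nor with CrePos replicate 2 included, which held 31.4 CPM (0.76, adjusted p = 0.256). Myl3 was not called without CrePos replicate 1 (1.18, adjusted p = 0.14), CrePos replicate 3 (1.67, adjusted p = 0.311) or CreNeg replicate 1 (1.32, adjusted p = 0.0636). Leaving out a CrePos library leaves a single one, which is assumed to vary like the others. With all 6 libraries, Myl3 was not called with edgeR (1.79, adjusted p = 0.0753) or with the pseudocount 0.1 (1.45, adjusted p = 0.051). With no filter neither Myl1 (adjusted p = 0.21) nor Myl3 (adjusted p = 0.255) was called. Other markers moved with these differences: of 5 skeletal muscle genes tested 1 was called higher, the troponin Tnnt3 (2.11 ± 0.51, adjusted p = 0.0434), and the summed level of the skeletal list was 5.32 to 26.8 CPM in CreNeg and 38.5 and 34.2 in CrePos replicates 1 and 3, with 27.6 in replicate 2. Of 6 working atrial genes 2 were called higher, Gja5 and Nppa, of 7 SAN genes 4 were called lower, and of 5 fibroblast genes 3 were called lower. Their part in the Myl1 and Myl3 differences was not tested.

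Myl4 was 3253 and 2656 CPM in CrePos replicates 1 and 3 and 1697, 1869, 2343 and 1903 in CreNeg, with no overlap, and its difference of 0.60 ± 0.24 was not called (adjusted p = 0.196). It was called by DESeq2 on the recovered reads (1.05, adjusted p = 4.32e-05). Its log2 ratio to Myl7 was 0.09 and 0.16 in these libraries against -0.56 to -0.39 in CreNeg, a difference of 0.61 at an exact permutation p of 0.0667, the smallest that 4 against 2 libraries can give. With all 7 libraries, CrePos replicate 2 at 0.67, the difference was 0.79 and the exact permutation p 0.0286, the smallest possible there. This p was not adjusted for the 4 ratios. Myh7 was 706 and 551 CPM in CrePos and 699 to 805 in CreNeg. The groups overlapped for Myh6, at 3446 and 4384 against 3080 to 4709 CPM, for Myl7, at 2374 and 3057 against 2231 to 3449, and for Mylk3, at 31.7 and 46.5 against 20.3 to 91.0. Myh7b, at 6.38 and 12.1 against 5.73 to 9.47 CPM, and Myl2, at 3.40 and 5.20 against 0.247 to 6.40, overlapped too.

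CrePos replicate 2 had the isoform makeup that was furthest from the others. Its Myh7 level was 2012 CPM and its Myh6 level 1518, so that Myh7 made up 56.9% of both per transcript length, against 13.6 to 20.6% in the other 6 libraries. Myl7, at 1090 CPM, was the lowest of the 7. Myl2 made up 45.7% of Myl2 and Myl7 against 0.00985 to 0.165%, and Myl3 29.1% of the essential light chains against 0.929 to 3.28%. Myh7b, at 26.6 CPM, was the highest of the 7, and Myl4, at 1737 CPM, lay within the CreNeg range.

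Among the partner lists at E12.5, 1 of 9 smooth muscle and nonmuscle myosin genes was higher and 1 lower, against 0.678% and 1.32% of all genes. Myh11 was higher by 2.09 ± 0.37 (adjusted p = 0.00644) and Myh10, a nonmuscle heavy chain, lower by -1.09 ± 0.24 (adjusted p = 0.0306). None of 9 thick filament partners, 2 skeletal myosin genes and 6 phosphatase genes was called.

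**Figure D5:**
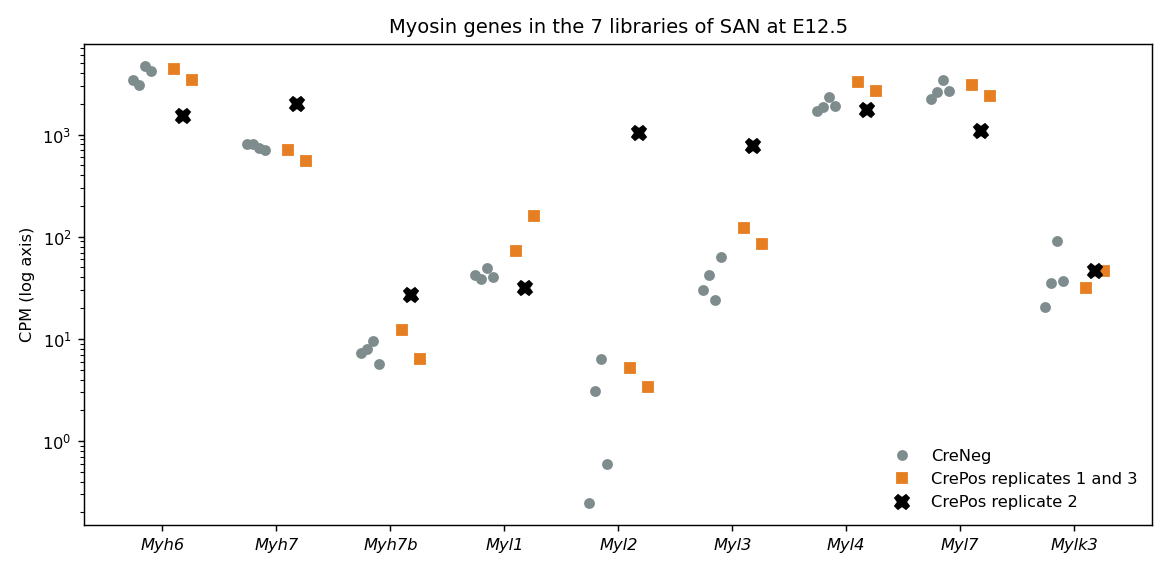
Level of the 9 myosin genes (y axis, CPM, log scale) in the 7 libraries of SAN at E12.5: 4 CreNeg (grey circles), CrePos replicates 1 and 3 (orange squares) and CrePos replicate 2 (black cross). Myl1 and Myl3 of CrePos replicates 1 and 3 lie above all CreNeg libraries, and CrePos replicate 2 holds 1032 CPM of Myl2 and 776 of Myl3.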

How the data were processed

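Captured RNA was amplified isothermally from random and oligo-dT primers, per the labels' protocols. TopHat2 2.0.6, edgeR and build mm8 are named, per the submitters' processing notes. How reads were counted, with or without strand, and how multiply aligned reads were assigned is not given in the sources used here. The deposited values are a scaled signal per gene. At least 99.98% of the values per library were whole multiples of 1 step within 0.1 of a read, so reads were recovered, and the signal was divided by 24.3 in every library, so that the mean library total is that of CPM. Genes with at least 1 CPM in 3 libraries (2 in the E12.5 fit) were tested with limma 3.58.1 (R 4.3.3) on log2(CPM + 1), with its trend option and p-values adjusted over all genes (Benjamini-Hochberg). The 18 tissue libraries were fitted with 6 group means, and the 7 of E12.5 apart. Adjusted p-values are limma's unless another tool is named. Ratios used 1 CPM as pseudocount and exact permutation of SAN and RA labels within stage. Alternatives were edgeR 4.0.16 quasi-likelihood and DESeq2 1.42.0 on recovered reads, another pseudocount (0.1), no filter, equal upper quartiles, a replicate block and leaving out each library. The scripts were tested on simulated data. All 9 members were named in each comparison, and of each partner list up to 2 called genes per direction with the smallest p, some of which are not reported here. Members and lists were chosen with earlier results of these data known. Transcript lengths are those of the principal GENCODE M21 transcripts (GRCm38), which is not the authors' build, so only the printed sequences carry coordinates. Read counts carry counting error alone, and amplification makes reads dependent.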

Additional observations from a re-analysis of the deposited data

Results flagged for a closer look

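The change of Myh7 from E14.5 to P14 differed between SAN and RA by -1.60 on the log2 scale in the test of that difference (limma, adjusted p = 0.00231), with SAN libraries at P14 below and RA libraries at P14 above their own E14.5 groups. CrePos replicate 2, which was left out of the limma test of CrePos against CreNeg, held signal above every CreNeg library for 4 of the 9 genes: Myh7 at 2012 CPM, Myh7b at 26.6 CPM, Myl2 at 1032 CPM and Myl3 at 776 CPM. In CreNeg, the only group of more than 3 libraries, a Dixon test on log2 levels flagged no library for any of the 9 genes. With only 4 values the test can hardly flag any, so it does not show that the libraries were alike. Mylk3 was 91.0 CPM in CreNeg replicate 3 and 20.3, 35.6 and 36.6 CPM in the others, and Myl2 ranged from 0.247 to 6.40 CPM.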

How the results depend on the processing

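Of 108 differences (9 genes in 12 comparisons), 23 were called, and 12 of these were called in every alternative run. The other 11 lost the call in at least 1, and none of the 23 changed sign. The 43 differences within 1 SE of 0 were given no direction. The number of the 9 genes called was 2 in place of 1 with edgeR and with DESeq2 for SAN from E14.5 to P14, and 4 in place of 2 with DESeq2 for SAN against RA at E14.5 and for SAN from P4 to P14. For the tissue difference in change it was 2 with edgeR and with equal upper quartiles and 3 with DESeq2, in place of 1. For the 3-stage mean it was 2 with equal upper quartiles, in place of 1. For CrePos against CreNeg it was 1 with edgeR, with the pseudocount 0.1 and with CrePos replicate 2, and 0 with no filter, in place of 2. The pseudocount 0.1 gave 1 in place of 2 for SAN from E14.5 to P4 and from P4 to P14. No filter gave 0 in place of 2 for SAN from P4 to P14 and 3 in place of 5 for RA from E14.5 to P14. The cause was not tested.

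Same-number SAN and RA libraries did not pair (r of -0.09 to 0.12, 3 of 9 best matched with their own number). With the replicate block, SAN from P4 to P14 had 0 calls in place of 2 (Myh7 0.65, adjusted p = 0.0552, and Myh7b -1.78, adjusted p = 0.0514), and over all genes the block gave 122 higher and 858 lower for CrePos against CreNeg, in place of 99 and 193.

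Leaving out 1 library in turn, the number of genes called ranged from 1 to 2 for the 3-stage mean, E14.5, P4, the tissue difference and SAN from E14.5 to P14, from 1 to 3 for P14 and for SAN from E14.5 to P4, from 0 to 3 for SAN from P4 to P14, from 0 to 2 for CrePos against CreNeg, from 2 to 3 for RA from P4 to P14 and from 4 to 5 for RA from E14.5 to P14. The ratio differences ranged from 0.18 to 0.29 for Myh7 to Myh6 and from -0.47 to -0.17 for Myl4 to Myl7. Signs turned for Myh7 in CrePos against CreNeg (-0.29), which was 0.18 with edgeR and with DESeq2, 0.16 with equal upper quartiles and 0.27 with CrePos replicate 2. They also turned for SAN from E14.5 to P4 in Myl2 (-1.61, from -3.42 to 0.74, the last without SAN E14.5 replicate 1) and Myl1 (-0.63, from -1.33 without SAN P4 replicate 3, adjusted p = 0.0182, to 0.01 without SAN P4 replicate 1). None of these 3 was called with all libraries.

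With edgeR on whole reads the counts of higher and lower genes were 97 and 29 for CrePos against CreNeg, where limma gave 99 and 193, and 1569 and 1146 for RA from E14.5 to P14, where limma gave 1052 and 2936. Depth limits Myl2, Myh7b at P14 and Mir208b, whose lowest libraries hold 0 to 3 reads.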
